A study of Mus musculus with 12 samples.

Results

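The genes that carried FOXP3, Ku70 or both proteins in mouse regulatory T cells (Tregs) are described here, together with the distance between them where a gene carried both. Members were protein-coding genes of the GENCODE M21 annotation on chromosomes 1 to 19 in which the summit of an enriched region, the base where its signal peaked, lay inside the gene or within 3 kb of either end. Of 20807 such genes, 2322 were members: 203 with both proteins, 374 with FOXP3 only and 1745 with Ku70 only. The study profiled both proteins by chromatin immunoprecipitation sequencing (ChIP-seq), which sequences the DNA that an antibody pulls down with its target. FOXP3 was profiled in Tregs of wild-type (WT) mice and in Tregs of mice with the Xrcc6 knockout (KO), and Ku70 was profiled in wild-type Tregs and in wild-type conventional T cells (Tconv). Each of these 4 sets held 2 immunoprecipitated replicates and 1 input, and each was deposited as 1 list of regions called on its pooled replicates.

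By the study's methods, all mice were on the C57BL/6J background and carried the Foxp3 Yfp-Cre allele, in which the Foxp3 gene drives Cre and a yellow fluorescent protein. The KO mice carried Xrcc6 fl/fl in addition, so that Ku70 was deleted in cells that express Foxp3. Tregs were sorted as CD4+CD25+YFP+ cells and Tconv as CD4+CD25-YFP- cells from spleen and lymph nodes, and the ages of the mice used for these libraries are not given in the sources used here. Inside the deposited lists, single regions are named with iTreg for the set labelled Treg Ku70, with Teff for Tconv and with CKO for KO. Groups were taken from the labels, and whether the Ku70 list came from sorted or from in vitro induced Tregs was not resolved.

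FOXP3 is the forkhead transcription factor that defines the Treg lineage; it binds DNA mostly at enhancers and promoters of T cell genes, together with partners such as RUNX1 and NFAT, and activates genes such as Il2ra and Ctla4. Ku70, the product of Xrcc6, pairs with Ku80 to form a ring that slides onto the free ends of broken DNA with little regard to sequence, which starts repair by non-homologous end joining. Very long genes, many of them with roles in neurons, are known as common sites of chromosome breakage.

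With 1 list per set, no spread between replicates can be given. The values are therefore descriptions of these lists without tests, and the 95% intervals (Wilson intervals for shares, order statistics for medians) cover counting error only. The rule left 1684 WT Treg FOXP3 regions and 5144 Treg Ku70 regions, of which 611 and 2294 lay at protein-coding genes, and 509 KO Treg FOXP3 and 1687 Tconv Ku70 regions. All 4 lists were weak by the authors' peak caller. Median fold enrichment over the background was between 2.02 and 2.12, and none of the 244 FOXP3 and 361 Ku70 regions at genes with both had a q-value, the p-value adjusted for the number of sites searched, below 1. None of the 4 lists had a summit at Xrcc6 or Foxp3 themselves. A list of bound regions does not measure expression, so the cell type could not be checked in the usual way. Of 10 Treg markers 4 had a Treg Ku70 summit and 0 a FOXP3 summit, and of 6 general T cell markers 1 and 0. Of 9 markers of B, myeloid, CD8 T and NK cells 0 and 0 did. Over all genes the shares were 9.36% for Treg Ku70 and 2.77% for FOXP3, so counts of 0 or 1 in sets this small set no cell type apart. In a wider list of 24 markers of other immune cells, given below, 3 had Ku70.

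The sites where both summits nearly coincided are shown first, because they are the closest that the lists came to one site held by both proteins. Sequences are from the plus strand of the reference (GRCm38.p6, the same assembly as mm10), and capitals run from one summit to the other, both included. Peak1 was the gene with the closest summits at a sequence that occurs once in the genome, and Ttc41 had the highest fold enrichment of each protein among the 12 closest pairs. Zfp985 and Gm10354 are members of families with near-identical copies, and the Ano4 site lies entirely in a repeat.

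Peak1 (coding exon, chr9:56260444-56260545): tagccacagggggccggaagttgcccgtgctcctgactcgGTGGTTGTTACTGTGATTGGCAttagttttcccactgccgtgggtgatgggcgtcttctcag
Ttc41 (intron, chr10:86732126-86732332): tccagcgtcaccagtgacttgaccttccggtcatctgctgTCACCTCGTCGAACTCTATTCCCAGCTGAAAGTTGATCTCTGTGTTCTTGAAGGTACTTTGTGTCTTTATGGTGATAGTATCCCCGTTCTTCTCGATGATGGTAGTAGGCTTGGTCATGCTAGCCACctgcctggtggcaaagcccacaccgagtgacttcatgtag
Zfp985 (intron, chr4:147564883-147564971): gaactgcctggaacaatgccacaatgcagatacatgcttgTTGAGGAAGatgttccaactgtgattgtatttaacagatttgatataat
Gm10354 (promoter, chr5:14981386-14981467): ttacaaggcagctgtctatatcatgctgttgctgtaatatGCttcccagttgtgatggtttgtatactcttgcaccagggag
Ano4 (intron, chr10:89200775-89200994): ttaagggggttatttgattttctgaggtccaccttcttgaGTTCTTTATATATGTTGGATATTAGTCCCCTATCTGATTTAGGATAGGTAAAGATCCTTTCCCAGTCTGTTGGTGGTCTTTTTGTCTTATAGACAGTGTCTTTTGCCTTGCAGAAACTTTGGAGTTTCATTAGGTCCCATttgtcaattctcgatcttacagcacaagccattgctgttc

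The reference masks 0% of the Peak1 window as repeat, 10.1% of the Ttc41 window and 100% of the Ano4 window. The 31 bases around the FOXP3 summit occurred once in the genome at Peak1, 2 times at Ttc41, 4 times at Zfp985, 8 times at Gm10354 and 2593 times at Ano4.

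FOXP3 marked 577 genes, 2.77% of all protein-coding genes, and Treg Ku70 marked 1948, or 9.36%. The 203 genes with both were 0.976% of all genes, 35.2% of the FOXP3 genes (31.4 to 39.2%) and 10.4% of the Ku70 genes (9.14 to 11.9%). Tconv Ku70, from cells sorted as negative for the Foxp3 reporter, marked 773 genes (3.72%), and these included 92 of the FOXP3 genes, or 15.9% (13.2 to 19.2%). The Treg Ku70 list was the longer one, at 5144 regions against 1687. Cut to its 1684 regions with the highest −log10 p, it marked 91 FOXP3 genes, or 15.8% (13.02 to 18.97%), which is within the interval of the Tconv share. Without the 3 kb flanks 191 genes had both, and with 10 kb on either side 249 did.

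The genes with both were long. Their median length was 289 kb (interval 217 to 374 kb), against 79.3 kb for genes with FOXP3 only, 63.0 kb for genes with Ku70 only and 15.3 kb for genes with neither. Of the 203 genes 48.3% spanned over 300 kb, a length reached by 0.941% of the genes with neither. Among the 7287 genes under 10 kb, 49 carried FOXP3, 215 Ku70 and 8 both. Among the 541 genes over 300 kb, 161 carried FOXP3, 304 Ku70 and 98 both. A longer gene offers more room for a summit. FOXP3 summits per megabase did not follow length in order, at 0.699 in genes under 10 kb, 0.387, 0.551 and 0.561 in the next 3 classes and 0.616 in genes over 300 kb.

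Within each length class the FOXP3 genes carried Ku70 more often than all genes of that class did. The share was 16.3% against 2.95% under 10 kb, 17.9% against 5.18% from 10 to 30 kb, 19.1% against 12.3% from 30 to 100 kb, 37.0% against 27.1% from 100 to 300 kb and 60.9% against 56.2% over 300 kb. Over 300 kb the interval of the FOXP3 genes' share was 53.2 to 68.1%, which holds 56.2%. Weighted to the length classes of the FOXP3 genes, the share of all genes with Treg Ku70 was 27.0%, against 35.2% of the FOXP3 genes. The classes are broad, and length still differed inside them. Over 300 kb the 161 FOXP3 genes with their flanks covered 113.0 megabases and the 380 other genes 202.1. FOXP3 genes there were thus longer, and the weighting removed length only in part. For Tconv Ku70 the same weighting gave 9.04%, against 15.9%. With all summits counted, the excess was present for both Ku70 lists, and for each the ratio of the FOXP3 genes' share to that of all genes was highest in the shortest class and lowest in the longest.

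**Figure D1:**
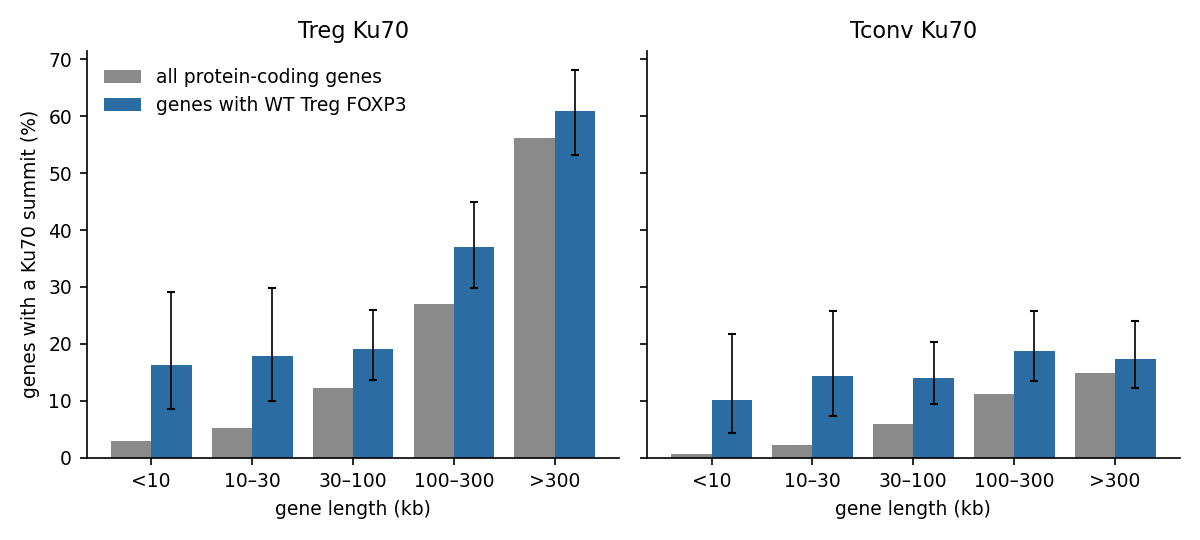
Share of genes with a Ku70 summit (%, y axis) by gene length in kb (x axis), for Treg Ku70 (left) and Tconv Ku70 (right). Grey bars are all protein-coding genes, blue bars are genes with a WT Treg FOXP3 summit with 95% Wilson intervals; in genes over 300 kb the Treg bars stand at 56.2% and 60.9%, and under 10 kb at 2.95% and 16.3%.

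Part of this excess moved with repeated sequence. Summits whose surrounding 31 bases were present at 2 or more places in the genome, where reads are harder to place, are called multi-copy here. Multi-copy summits made up 33.6% of the FOXP3 regions at genes with both and 20.7% of the FOXP3 regions at other genes, and 31.02% and 18.6% of the Ku70 regions. Over the whole lists, with the regions away from protein-coding genes, they made up 34.2% of FOXP3 and 27.6% of Treg Ku70 regions. The shares at genes with both were thus near those of the whole lists. With single-copy summits in both lists, 452 genes had FOXP3 and 133 of them Ku70, or 29.4% (25.4 to 33.8%), against 24.4% of all genes weighted to the same length classes. None of the 23 FOXP3 genes under 10 kb then had Ku70, where 2.02% of all genes of that class did. At that share a set of 23 genes holds few or none, so the 0 does not set these genes below the rest. Over 300 kb the shares were 53.7% of the FOXP3 genes and 48.1% of all genes. Tconv Ku70 with single-copy summits was at 49 of the 452 genes, or 10.8% (8.30 to 14.0%), an interval that holds the 8.20% of all genes weighted to the same length classes. It was at 0% of the same 23 FOXP3 genes under 10 kb, where 0.467% of all genes of that class had it.

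Counted per megabase of gene with its flanks, Treg Ku70 had 2.42 summits in FOXP3 genes and 2.13 in genes without FOXP3. With single-copy summits in both lists the values over all lengths were 1.67 and 1.72, while by length class genes under 10 kb alone had this order. Genes over 300 kb made up 97.4 of the 131.4 megabases of FOXP3 genes and 217.7 of the 1018 megabases of the others. The 2 values over all lengths thus weigh the length classes differently. In genes under 10 kb the density was 18.9 with FOXP3 and 3.01 without, on 10 Ku70 summits, and 0 and 2.01 with single-copy summits. That 0 rested on 0.253 megabases of FOXP3 genes, too little to set it below 2.01. In genes over 300 kb it was 1.74 and 1.63, and 1.43 and 1.33 with single-copy summits. In each class between 10 and 300 kb the single-copy density was higher in FOXP3 genes. From 10 to 30 kb it was 2.743 against 1.866, on 3 summits in FOXP3 genes, too few to set the 2 values apart. From 30 to 100 kb it was 2.745 against 1.928 on 23 summits, and from 100 to 300 kb 2.26 against 1.65 on 55 summits.

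**Figure D2:**
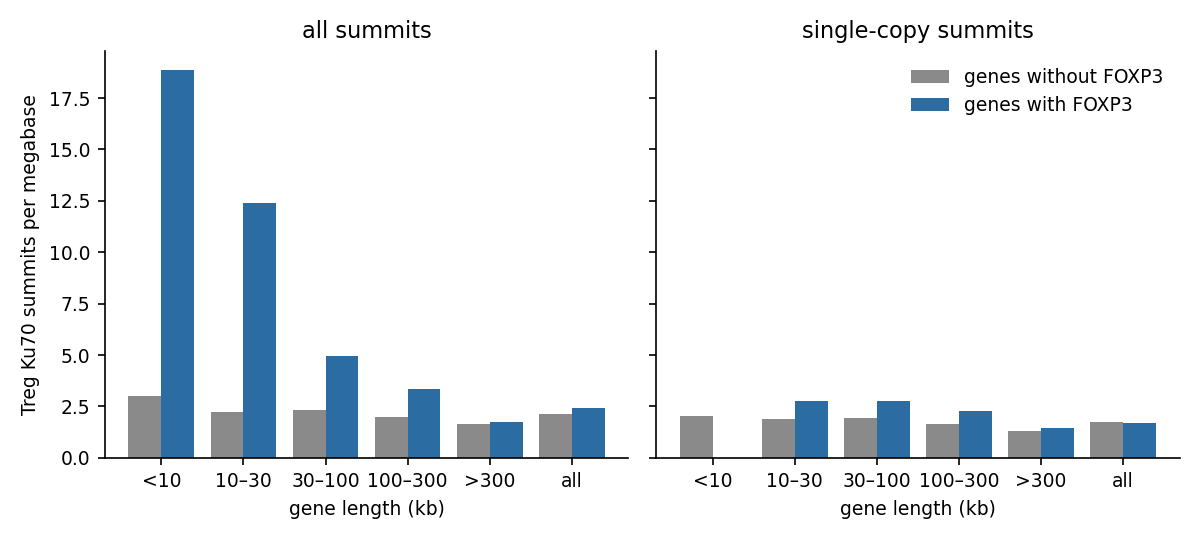
Treg Ku70 summits per megabase of gene and 3 kb flanks (y axis) by gene length in kb (x axis), with all summits (left) and single-copy summits (right). Grey bars are genes without FOXP3 and blue bars genes with FOXP3. Over all lengths the bars stand at 2.13 and 2.42 on the left and at 1.72 and 1.67 on the right. On the right, genes under 10 kb are the only length class with the grey bar higher.

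In most genes with both, FOXP3 and Ku70 lay far apart. For each gene the closest pair of a FOXP3 and a Ku70 summit was taken. The median distance was 45.8 kb (interval 33.4 to 67.7 kb), the quartiles were 13.2 and 128 kb, and the range was 1 bp to 1085 kb. The summits lay within 100 bp in 5 genes, within 1 kb in 14 (6.90%), within 10 kb in 45 (22.2%) and within 100 kb in 136 (67.0%). In 8 genes the regions themselves overlapped. The closest summits shared 1 intron in 56 genes and lay in introns, the same or different, in 157.

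The same FOXP3 list was set beside the other lists, which shares the FOXP3 summits among the 3 sets of distances. To Tconv Ku70 the median was 26.5 kb (12.8 to 42.9 kb) over 92 genes, and 9.78% of them had summits within 1 kb. To KO Treg FOXP3 it was 34.4 kb (3.47 to 70.8 kb) over 46 genes, of which 14 (30.4%) had summits within 1 kb and 13 within 100 bp. The distances from one FOXP3 list to the other therefore had a group near 0 and a group beyond 10 kb, whereas those to either Ku70 list had few values below 1 kb. The genes in the 3 comparisons differed in length, with medians of 289, 142 and 277 kb.

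**Figure D3:**
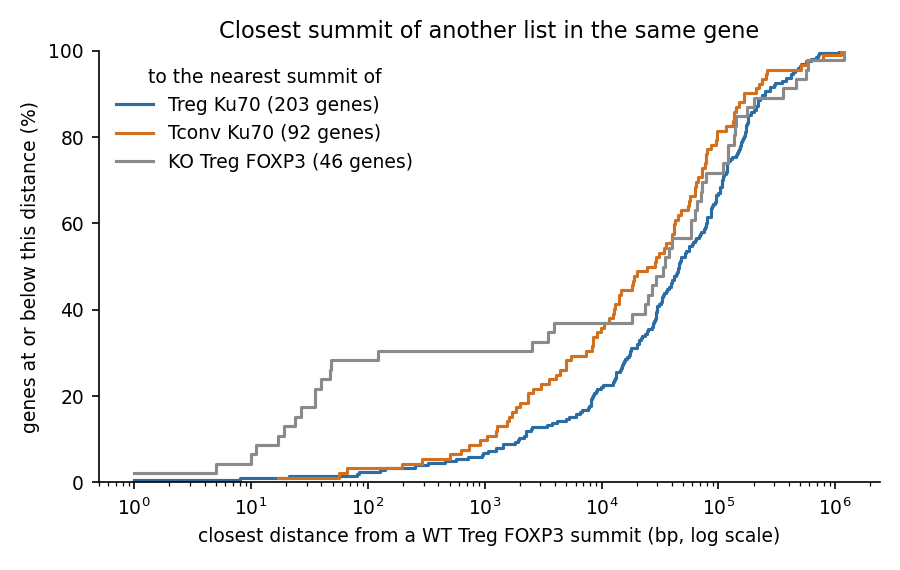
Share of genes (%, y axis) whose closest summit lies at or below a given distance from a WT Treg FOXP3 summit (bp, log scale, x axis), for Treg Ku70 (blue, 203 genes), Tconv Ku70 (orange, 92 genes) and KO Treg FOXP3 (grey, 46 genes). At 1 kb the curves stand at 6.90%, 9.78% and 30.4%.

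Distance followed gene length. Across the 203 genes, Spearman's rank correlation between the closest distance and the gene's length was 0.663, which is a description, since a distance cannot exceed the gene with its flanks and the genes share 2 lists. The median distance rose over the length classes from 1.503 kb under 10 kb to 2.10, 14.5, 47.3 and 119 kb over 300 kb. As a share of gene length it was 23.1% over all genes and between 10.0 and 27.4% in the 5 classes. The 67 genes with summits over 100 kb apart had a median length of 629 kb. The 14 genes with summits within 1 kb had a median length of 38.0 kb, and 11 of them (78.6%) had a multi-copy summit in the pair, against 38.1% of the 189 others. The median distance was 66.2 kb for the 120 pairs with single-copy summits and 29.8 kb for the 83 others. The genes of these 2 groups also differed in length, with medians of 331.7 and 215.6 kb.

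**Figure D4:**
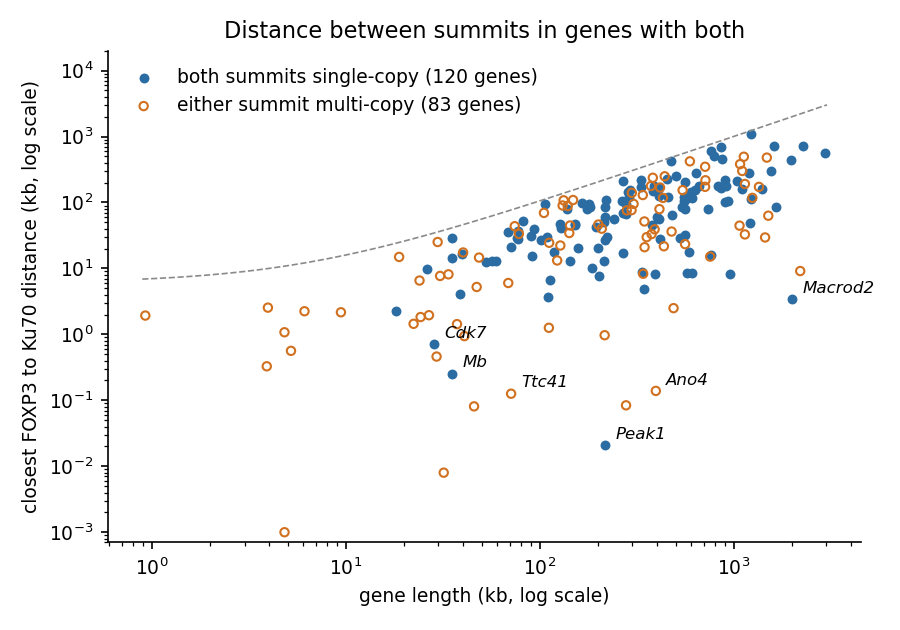
Closest distance between a FOXP3 and a Ku70 summit (kb, log scale, y axis) against gene length (kb, log scale, x axis) for the 203 genes with both. Filled blue points are pairs of single-copy summits (120 genes), open orange points pairs with a multi-copy summit (83 genes), and the dashed line is gene length plus 6 kb, the largest distance possible; Peak1, Mb and Cdk7 are the filled points below 1 kb.

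Of the 14 genes within 1 kb, Peak1, Mb and Cdk7 had single-copy summits at both proteins. Peak1, a pseudokinase that scaffolds signalling at the cytoskeleton, had its FOXP3 summit at 56260505 (1.94-fold, −log10 p 1.66) and a Ku70 summit 21 bp away at 56260484 on chromosome 9 (2.15-fold, −log10 p 1.69), in the sequence printed above. It carried 3 further Ku70 summits, 111.9, 194.4 and 10.5 kb from its start, and none of the KO FOXP3 or Tconv Ku70 list. Mb, which encodes the oxygen carrier myoglobin of muscle, had summits 254 bp apart in an untranslated or noncoding exon on chromosome 15, at 2.44-fold for FOXP3 and 2.60-fold for Ku70, and 1 KO FOXP3 summit as well. Cdk7, the kinase of the CDK-activating complex and of the transcription factor TFIIH, had them 720 bp apart across its end on chromosome 13, at 1.99-fold (−log10 p 1.34) and 2.22-fold (−log10 p 2.03).

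The other 9 of the 12 closest genes had a multi-copy summit in the pair. Gm10354 (1 bp apart), Gm10251 (81 bp) and C130026I21Rik (84 bp) are known by annotation names alone. Zfp985 (8 bp) and Zfp987 (461 bp) encode zinc finger proteins. Ttc41, a tetratricopeptide repeat gene, had summits 126 bp apart at 3.25-fold for FOXP3 (−log10 p 3.62) and 2.97-fold for Ku70 (−log10 p 3.31), in the sequence shown, and carried a KO FOXP3 and a Tconv Ku70 summit too. Ano4, of the anoctamin family of membrane proteins, had them 139 bp apart in the repeat printed above, at 1.99-fold and 2.22-fold. Mup9, a major urinary protein that carries pheromones, had them 328 bp apart and Speer4e, of a testis gene family, 563 bp apart with the highest FOXP3 −log10 p of the 12, at 4.84.

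Enrichment at the closest pairs was low and took few values. Folds ran from 1.60 to 3.40 for FOXP3 and from 1.53 to 3.53 for Ku70. The FOXP3 summit of the pair stood at −log10 p 1.34, the commonest value of its list, in 83 genes, the Ku70 summit at 1.47, the commonest of its list, in 91, and both did so in 43 of 203. In 22 genes both summits reached a −log10 p of 2. The median fold of FOXP3 regions was 2.02 at genes with both and 2.07 at other genes, and that of Ku70 regions was 2.04 at each, so genes with both did not stand out by strength.

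The highest FOXP3 folds among the genes with both were at Rnf157, an E3 ubiquitin ligase (3.40-fold, −log10 p 4.33), Ttc41, and Abcg2, an efflux transporter of the plasma membrane (3.19-fold). At Rnf157 the FOXP3 summit lay 37.6 kb from the Ku70 summit (2.04-fold), both in introns. The highest Ku70 folds were at Arhgap26, an activator of GTPase activity (3.53-fold, 149 kb from FOXP3), Abcg2 (3.41-fold, −log10 p 4.92) and the zinc finger gene Zfp991 (3.03-fold). Abcg2 stood in both groups, with summits 1259 bp apart, and both of their sequences occurred 2 times in the genome.

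The largest number of summits was at C130026I21Rik on chromosome 1, with 8 FOXP3 and 20 Ku70 summits over 278 kb, and 15 Tconv Ku70 and 1 KO FOXP3 summits. It shared regions with its neighbour A530032D15Rik, which had 2 and 7. Of the 28 summits at C130026I21Rik, 27 were multi-copy. Sprr2a2, a small proline-rich protein of the skin barrier, had 4 and 5 and shared regions with Sprr2a1. The long genes Epha6, an ephrin receptor (3 FOXP3 and 5 Ku70), and Pde4d, a phosphodiesterase that degrades cAMP (2 and 6), had 8 each. Most genes had fewer: 109 of the 203 had 1 summit of each protein, 72 had more Ku70 than FOXP3 summits and 14 more FOXP3 than Ku70 summits. Joining genes that shared a region left 199 loci.

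**Figure D5:**
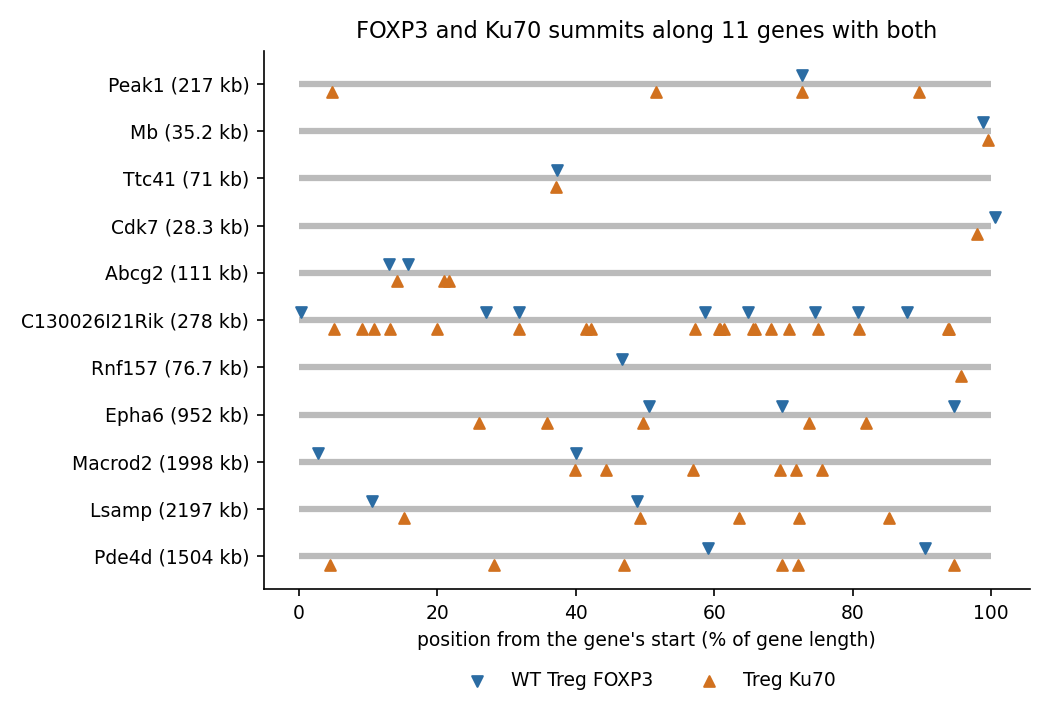
Positions of WT Treg FOXP3 (blue, above the line) and Treg Ku70 (orange, below the line) summits along 11 genes with both, as a percent of gene length from the gene's start (x axis), with gene length in kb after each name. The markers coincide at Peak1 and Ttc41, lie 1259 bp apart at their closest in Abcg2 and lie 37.6 kb apart at Rnf157.

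A group of zinc finger genes on chromosome 4 was noticed after its values were seen. Of 14 Zfp genes between 145670685 and 147642513 on that chromosome, 8 carried both proteins, 5 Ku70 only and 1 neither, and 12 carried Tconv Ku70; the stretch was bounded by the genes with both themselves, and over all genes 0.976% had both and 3.72% Tconv Ku70. The closest summits of the 8 genes were 8 bp to 25.1 kb apart, and every pair had a multi-copy summit, with 2 to 224 copies. In this stretch of 1.97 megabases the lists had 19.3 WT FOXP3, 25.9 Treg Ku70, 8.62 KO FOXP3 and 50.7 Tconv Ku70 summits per megabase. In the 5 length classes of all genes with their flanks, the densities were 0.387 to 0.699, 1.67 to 3.00, 0.185 to 0.261 and 0.324 to 1.18.

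The genes for which Tregs are known were looked up by list, beside the shares of all genes, 0.976% with both, 2.77% with FOXP3 and 9.36% with Ku70. At the first 2 of these shares a list of this size holds few or no genes, so a count of 0 or 1 sets no list apart. The Ku70 share also varied with length, at 5.18% of all genes from 10 to 30 kb and 12.3% from 30 to 100 kb. The 3 T cell lists, in the order given below, had median gene lengths of 18.1, 57.3 and 48.5 kb. Tconv Ku70 was at 3, 1 and 3 of their genes. The lists were chosen with earlier results of these data known, so their Ku70 shares are descriptions only. Of 36 Treg markers and suppressor genes, 0 had FOXP3 and 9 had Ku70 (25%). Il2ra, the high-affinity subunit of the IL-2 receptor, had 3 Ku70 summits (up to 2.78-fold, −log10 p 2.64). The other 8 had 1 each: Icos, a costimulatory receptor, Ikzf2, the transcription factor Helios, Nrp1, Itgae, Nt5e, Socs2, Prdm1 and Cdyl2, at folds from 1.81 to 2.41. Of 41 T cell transcription factors and FOXP3 partners, 0 had both, 1 had FOXP3 only (2.44%, near the 2.77% of all genes) and 8 Ku70 only (19.5%). The FOXP3 gene was Lef1, a factor of the Wnt pathway and of naive T cells (3.19-fold), and the Ku70 genes included Runx1, Foxp1 and Ets1 with 2 summits each and Rora and Bcl11b with 3.

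Of 40 genes of T cell receptor and cytokine signalling, 1 had both, 1 FOXP3 only and 9 Ku70 only, which put FOXP3 at 5% of the list, on 2 genes, and Ku70 at 25%, against 2.77% and 9.36% of all genes. Prkcq, the kinase that links the T cell receptor to NF-κB, had FOXP3 only (2.59-fold). Ku70 only was found at the receptor chain Cd247, the adaptor Lcp2, the phosphatase Ptprc (CD45) and the cytokine receptors Il2rb, Tgfbr1 and Ifngr1, among others. Of 30 genes of DNA end joining and break signalling, the pathway of Ku70 itself, Rad50 had FOXP3 only (1.84-fold), 1 gene had Ku70 only and 28 had neither, so each protein was at 3.33% of the list, against 2.77% of all genes for FOXP3 and 9.36% for Ku70. Of 24 markers of other immune cells 0 had FOXP3 and 3 Ku70 (12.5%, near the 9.36% of all genes): Ebf1, Adgre1 and Mrc1. Among genes with both outside these lists, chosen after their values were seen, Themis, a regulator of T cell receptor signals in the thymus, Ppp3ca, a catalytic subunit of calcineurin, and Dock2, a Rac activator of lymphocyte migration, each had 1 FOXP3 summit, at 2.29-fold, 2.44-fold and 1.64-fold, with the closest Ku70 summits 86.5, 211.6 and 201.5 kb away.

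The genes with both included many very long genes. Of 46 genes of cell adhesion, synapses and fragile sites, with a median length of 1137 kb, 21 had both, 5 FOXP3 only, 15 Ku70 only and 5 neither. With FOXP3 at 56.5% and Ku70 at 78.3% of the list, the shares were above those of all genes over 300 kb (29.8% and 56.2%), whose median length was 450.5 kb. This list, like the others, was chosen with earlier results of these data known. The difference therefore does not set its genes apart from other long genes. Tconv Ku70 was at 6 of the 46 genes and KO FOXP3 at 10. Of all 541 genes over 300 kb, 81 had Tconv Ku70 (15.0%), and the Tconv count of the list is near that share. KO FOXP3 was at 6.80 to 14.3% of the genes over 300 kb with both, FOXP3 only, Ku70 only or neither. The genes with both included Csmd1, Csmd3, Dlg2, Macrod2, Ptprd, Ctnna2, Nrxn3, Dab1, Cdh13, Magi2, Lsamp, Negr1, Pcdh15, Erbb4, Sgcz, Immp2l, Galntl6, Naaladl2 and Tenm2. The 21 genes held 29 FOXP3 and 47 Ku70 summits, and in 20 of the 21 genes both summits of the closest pair were in introns, in 6 within the same intron. The median distance was 172 kb, from 3.42 kb at Macrod2 to 1085 kb. Macrod2, an enzyme that removes ADP-ribose from proteins, had 2 FOXP3 summits, 54.9 and 799.3 kb from its start, and 6 Ku70 summits between 795.9 and 1509 kb. Lsamp, a neuronal adhesion protein, had 2 and 5, and Naaladl2 1 and 5, with Naaladl2 reaching 2.74-fold for FOXP3 and 2.60-fold for Ku70.

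The strongest regions at genes with only 1 of the proteins were as follows. For FOXP3 they were at Fer, a tyrosine kinase, and Slc22a30, an organic ion transporter (both 3.79-fold, −log10 p 5.25), and at 1 promoter shared by 4930430F08Rik and 1700017N19Rik (3.19-fold, −log10 p 3.76). The Fer summit sequence occurred 2532 times in the genome and the other 2 occurred once. Lef1, named above, had the same fold and −log10 p as the shared promoter, also at a sequence that occurred once. For Ku70 the strongest regions were at the promoter of Kpna1, a nuclear import receptor (5.47-fold, −log10 p 9.32, single-copy), an intron of Mdga2, a synaptic adhesion protein (2.49-fold, −log10 p 8.17, single-copy) and an intron of Gm9495 (4.8-fold, −log10 p 7.28, 10 copies). Mdga2 is a gene of the list of very long genes above.

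KO Treg FOXP3 marked 223 genes (1.07%) in the Tregs without Ku70. It was found at 26 of the genes with both, or 12.8% (8.89 to 18.1%), at 5.35% of genes with FOXP3 only, 3.15% of those with Ku70 only and 0.660% of those with neither. Tconv Ku70 was found at 23.6% (18.3 to 29.9%), 11.8%, 8.82% and 2.85% of the 4 classes. These classes differ in length: in genes over 300 kb KO FOXP3 was at 14.3% of genes with both, 12.7% with FOXP3 only, 6.80% with Ku70 only and 7.47% with neither, and Tconv Ku70 at 18.4, 15.9, 14.6 and 13.2%. Among genes from 30 to 100 kb the Tconv shares were 36.7, 8.66, 7.03 and 5.47%. In genes over 300 kb the 4 classes thus lay close together in Tconv Ku70. From 30 to 100 kb the Tconv share at genes with both rested on 11 of 30 genes, of which 6 were zinc finger genes of the chromosome 4 stretch described above and 10 had a multi-copy summit in the closest pair. Without that stretch 5 of 24 remained, or 20.8% (9.24 to 40.5%), against 7.94, 6.71 and 5.47% of the other 3 classes. In all, 11 genes carried summits of all 4 lists.

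Presence in a gene seldom meant presence at the same place. Of the 162 single-copy FOXP3 summits at genes with both, 1 lay within 100 bp of a Treg Ku70 summit (Peak1), 4 within 100 bp of a KO FOXP3 summit (Dock2, Mb, Mkln1 and Rnf157) and 0 within 100 bp of a Tconv Ku70 summit. Of the 82 multi-copy FOXP3 summits the numbers were 4, 2 and 1. Of the 249 single-copy Ku70 summits, 1 lay within 100 bp of a Tconv Ku70 summit, at Arhgap26, and of the 112 multi-copy ones 3 did.

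By place, 173 of the 203 closest FOXP3 summits were in introns, 20 within 3 kb of a transcription start of the gene and 4 in coding exons, and for Ku70 the numbers were 167, 19 and 3. TGTTTAC, the core motif of forkhead factors such as FOXP3, was sought on either strand up to 50 bp from each summit. It was found at 5 of 244 FOXP3 regions of genes with both, or 2.05% (0.878 to 4.71%), and at 1.39% (0.901 to 2.14%) of the rest of the FOXP3 list. At Ku70 regions it was at 0.831% (0.283 to 2.41%) and 1.05% (0.794 to 1.38%). The repeat TTTGTTTG, which FOXP3 can also bind and which cannot contain the core, was at 1.23% (0.419 to 3.55%) and 0.833% (0.477 to 1.45%) of FOXP3 regions. At Ku70 regions the repeat was at 1 of 361 of genes with both, or 0.277% (0.0489 to 1.55%), and at 1.27% (0.994 to 1.64%) of the rest, the opposite order. The intervals overlapped in each of these 4 comparisons.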

How the data were processed

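According to their methods, the authors checked reads with FastQC, trimmed them with Trim Galore, aligned with Bowtie2 to the mm10 build, dropped duplicates with Picard (GATK) and ran MACS2 on each set with its 2 replicates pooled and its input as control, with a p-value threshold of 0.05, no model of fragment shift and reads extended to 140 bp; versions are not given in the sources used here. In the deposited lists the signal is a ratio, the fold by which reads at the summit exceed the local background. Each deposited row further holds a −log10 p-value, a −log10 q-value and the summit's offset in bp from the region's start. Sequencing depth was not analysed here.

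Rows with the same chromosome, start and end were joined, keeping the strongest. Chromosome X, unplaced contigs and mitochondrial DNA were left out, as was chromosome 1 at 24611535 to 24616188, a nuclear copy of mitochondrial DNA. Summits were assigned to genes of GENCODE M21 with 3 kb either side. Copies of the 31 bases around a summit were counted on both strands of the reference strain's assembly. Length classes were cut at 10, 30, 100 and 300 kb. Genes named were the 12 with the closest summits, the 5 with most summits, the 3 with the highest fold for each protein, genes of the 6 fixed lists with both, and the 3 strongest with 1 protein, with ties broken by −log10 p and then position. Some genes of these lists are counted but not reported by name here. The members and the gene lists were chosen with earlier results of these data known. The assignment and the closest pair were tested on simulated data with planted summits. Scripts used samtools 1.23.1, matplotlib 3.10.9, pysam 0.24.0, scipy 1.17.1, pandas 2.3.3 and numpy 2.4.6 under Python 3.11.15.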

Additional observations from a re-analysis of the deposited data

How the results depend on the processing

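No paired analysis was possible because each set was deposited as 1 list called on pooled replicates, and for the same reason no replicate could be left out. Of 133 values under alternatives for the 203 genes with both, the 35.2% of FOXP3 genes with Ku70, the median distance of 45.8 kb and the 14 genes within 1 kb, 108 stayed within 1.5 times the reported count or inside the interval of the reported share or median, and 25 moved. Leaving out each chromosome in turn moved none of its 76 values, with 181 to 199 genes, 34.4 to 36.1%, 44.7 to 49.7 kb and 11 to 14 genes. Leaving out 1 of 19 chromosomes removes few genes, so these values could hardly move past the limits. They are most of the 108 values that stayed, and all 25 that moved came from the other alternatives. The gene body alone, 10 kb either side, every summit of a region, any overlap of the region, chromosome X added and each summit given to 1 gene moved none of the 4 results. Leaving out the chromosome 4 stretch of zinc finger genes, chosen after seeing the data, moved none either, with 195 genes, 34.4%, 48.1 kb and 12 genes. Windows around transcription starts gave 13 genes, 13.1% of 99 FOXP3 genes, 2.24 kb and 2 genes. A −log10 p of at least 2 gave 31 genes, 25.2%, 29.8 kb and 6 genes. The Ku70 list at the size of the FOXP3 list gave 91 genes, 15.8% and 9 genes within 1 kb. Single-copy summits gave 133 genes, 29.4%, 79.3 kb and 3 genes, and at most 50% masked bases gave 30.3% and 9 genes. Genes of at most 100 kb gave 48 genes, 18.3% and 7.12 kb. Tconv Ku70 in place of Treg Ku70 gave 92 genes, 15.9%, 26.5 kb and 9 genes. All pairs of a gene in place of the closest gave a median of 87.6 kb. The lower counts under shorter or stricter lists follow from the construction of those lists, which hold fewer regions. The cause of the other changes was not tested. A region is listed or not, with no signal below the threshold, which limits these results.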

Other observations

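FOXP3 regions away from protein-coding genes had a Ku70 summit nearby about as often as those at genes. No share was computed for positions without FOXP3, so these values do not show nearness beyond the density of the Ku70 list. Of the 1073 WT FOXP3 regions away from protein-coding genes, 27 (2.52%) had a Treg Ku70 summit within 1 kb, 11.5% within 10 kb and 43.6% within 100 kb. Of the 611 FOXP3 regions at protein-coding genes, 17 (2.78%) had one within 1 kb, 9.49% within 10 kb and 39.6% within 100 kb. The median distance to the nearest Ku70 summit was 133 kb away from genes and 143 kb at genes.

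The members were spread over all 19 chromosomes. The share of FOXP3 genes with Ku70 ran from 16% on chromosome 17, on 4 of 25 genes, to 61.5% on chromosome 18, on 8 of 13. Between the 2 Ku70 lists, 202 genes had a summit of each, with a median closest distance of 23.7 kb (17.3 to 33.7 kb) and 20 genes within 1 kb. Between KO FOXP3 and Treg Ku70, 81 genes had each, with a median of 28.0 kb (14.9 to 40.05 kb) and 12 genes within 1 kb.

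Among the 203 genes with both, 16 had single-copy summits of both proteins within 10 kb, and 7 of the 16 spanned over 300 kb. Beside Peak1, Mb, Cdk7, Macrod2 and Epha6 they included Met, the receptor for hepatocyte growth factor, and Rgs13, a regulator of G protein signalling, which were chosen after their values were seen.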
